A study of Mus musculus with 6 samples.

Results

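The respiratory chain genes of thoracic lateral plate mesenchymal cells (LPMs) were described here, both those carried by the mitochondrial genome and those carried by the nucleus. They were chosen by gene name alone: mt-Nd, mt-Co, mt-Cytb and mt-Atp genes, Nduf, Sdha to Sdhd, Uqcr, Cox4 to Cox8 and Atp5 genes, without pseudogene names. The rule found 106 of the 49585 genes of the table, of which 13 are mitochondrial and 93 nuclear. The nuclear members are 82 structural subunits, 8 complex I assembly factors (Ndufaf) and 3 associated proteins. Cells came from embryos at E10.5, labelled C57BL/6 and kept on a C57BL/6NCrSlc background. The tested embryos were Prx1-Cre Ebf3 flox/flox (KO, 3 libraries), in which both copies of Ebf3 are floxed, and they were set against Prx1-Cre Ebf3 flox/+ embryos (Het, 3 libraries). Both genotypes carry Prx1-Cre and the R26R-Tdtomato reporter, so the Het embryos also lose a copy of Ebf3 where Cre is active. Prx1-Cre acts in limb bud and lateral plate mesenchyme, and Tdtomato-positive cells of the dissected thoracic wall were collected by FACS before RNA extraction. The labels do not say whether each library came from 1 embryo or a pool.

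The respiratory chain sits in the inner mitochondrial membrane. Complex I takes electrons from NADH and complex II from succinate, ubiquinone carries them to complex III, cytochrome c carries them to complex IV, which reduces oxygen, and complex V uses the proton gradient to make ATP. Complexes I, III, IV and V are built from subunits of both genomes, and complex II from nuclear subunits only. The mitochondrial genes are transcribed as long polycistronic RNAs inside the organelle, whereas each nuclear subunit has its own promoter.

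The libraries held 36931792 to 44536132 reads, and the deposited gene counts summed to 2412856, 2088091 and 3525565 in KO 1, KO 2 and KO 3, against 3256007, 2433977 and 2392910 in Het 1, Het 2 and Het 3. Ebf3, the deleted gene, had 73.6, 42.9 and 60.4 CPM (counts scaled to a common library size with TMM factors) in KO libraries, against 94.1, 98.1 and 105.1 CPM in Het libraries. The KO libraries were all below the Het libraries (log2 fold change −0.74, SE 0.18, unadjusted p = 0.0016, adjusted p = 1.00, edgeR quasi-likelihood test). The mesenchymal markers Prrx1, Twist1, Tbx5, Pdgfra and Col1a1 were present in every library, with a summed level of 2126 to 3215 CPM in KO and 2610 to 3282 CPM in Het.

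The table gives 2 readings of each gene, a count and an RPKM (fragments per kilobase of exon, scaled to the mapped pairs of the library), and they diverged in several mitochondrial genes. Multiplying the RPKM by exon length and by the fragments mapped as pairs gave whole numbers of fragments for all 13 mitochondrial genes. In 5 of them the deposited counts held 0.250 to 2.36% of those fragments: mt-Atp6, mt-Co2, mt-Co3, mt-Nd3 and mt-Nd4l. In mt-Co1 and mt-Nd4 they held 52.7 to 56.1%, and in mt-Nd1, mt-Nd2, mt-Nd5, mt-Nd6, mt-Cytb and mt-Atp8 they held 96.4 to 100%. The first 5 genes are those with a copy of at least 99% identity over nearly the whole gene among GENCODE pseudogenes on mouse chromosome 1. These copies lie side by side on the minus strand, for example Gm28661 (mt-Co2) at chr1:24614885-24615565 and Gm28437 (mt-Co3) at chr1:24613189-24613971 (GRCm38). The copy of mt-Nd4, Gm28439, matches 876 of 1378 bases, and that of mt-Co1, Gm29216, matches 482 of 483 aligned bases of a gene of 1545 bases. All 7 copies had 0 counts in every library. mt-Atp8 shares only 43 bases with a copy, where it overlaps mt-Atp6, and its counts equalled its fragments in all 6 libraries.

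The first 90 aligned bases of 3 mitochondrial genes are shown with their copies, whose identity was 100, 99.71 and 92.91%. The copy found for mt-Nd1, which is not shown, was less alike, at 76.62%. Bases that differ between gene and copy are in capitals, and sequences are from GENCODE M21 on GRCm38.
mt-Atp6 (chrM:7927-8016, plus strand): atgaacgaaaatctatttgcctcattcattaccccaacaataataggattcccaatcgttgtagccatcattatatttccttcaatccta
Gm10925 (chr1:24614562-24614651, minus strand): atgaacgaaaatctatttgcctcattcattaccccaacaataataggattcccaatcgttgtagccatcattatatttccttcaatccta
mt-Nd3 (chrM:9459-9548, plus strand): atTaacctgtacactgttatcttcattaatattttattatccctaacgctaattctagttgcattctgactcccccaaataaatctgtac
Gm28438 (chr1:24613030-24613119, minus strand): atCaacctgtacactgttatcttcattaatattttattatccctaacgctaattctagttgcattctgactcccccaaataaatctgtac
mt-Cytb (chrM:14146-14235, plus strand): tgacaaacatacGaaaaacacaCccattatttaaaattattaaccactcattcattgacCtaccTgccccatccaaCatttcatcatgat
Gm11410 (chr4:80003990-80004079, plus strand): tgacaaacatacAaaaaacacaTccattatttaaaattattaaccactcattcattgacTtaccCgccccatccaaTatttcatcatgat

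mt-Atp6 and Gm10925 are identical over 678 bases, and 0.76 to 1.05% of mt-Atp6 fragments were counted. mt-Nd3 and Gm28438 differ by T3C over 345 bases, with positions counted from the first base of mt-Nd3, and 0.85 to 2.36% of mt-Nd3 fragments were counted. Gm28438 was the copy with most fragments behind its RPKM, 47, 57 and 108 in KO libraries, against 40, 54 and 50 in Het libraries. mt-Cytb differs from its nearest copy, a processed pseudogene on chromosome 4, at 81 of 1142 aligned bases, and 99.8 to 99.9% of its fragments were counted. Values of the 5 nearly uncounted genes are given below as counts and, where a result turns on them, as fragments.

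**Figure D1:**
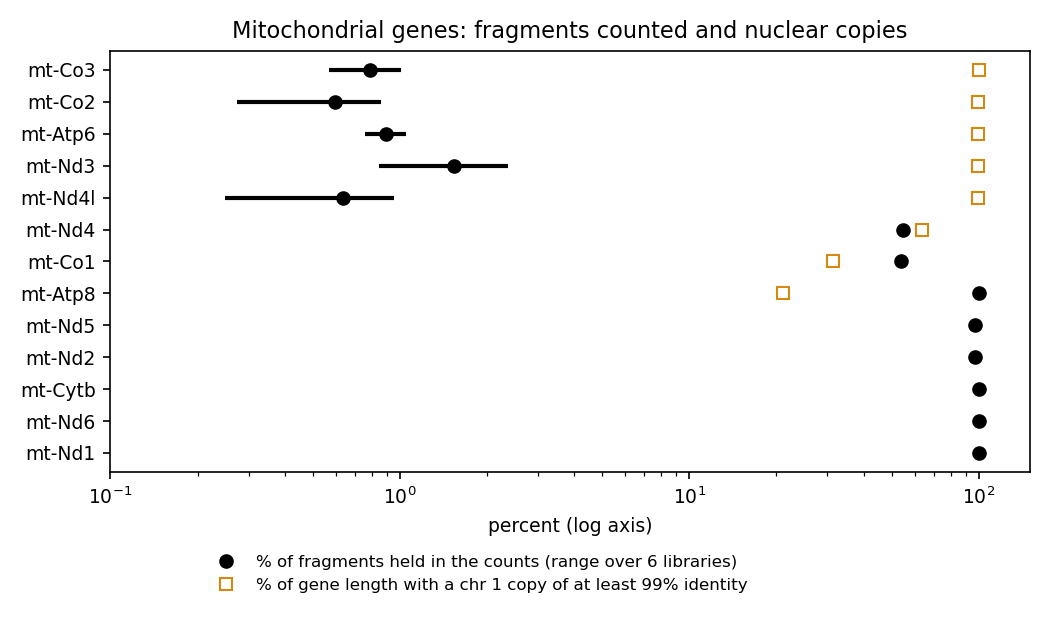
Percent of the fragments behind the RPKM that the deposited counts hold for each mitochondrial gene (filled points, all 6 libraries together, with a line over the range of the libraries) and percent of the gene covered by its copy on chromosome 1 of at least 99% identity (open squares, drawn only for the 8 genes with one). The 5 genes covered over nearly their whole length had 0.250 to 2.36% of fragments counted, and the others 52.7% or more.

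The nuclear members each have their own promoter, and some letters recur among them. RefSeq promoters (GRCm38.p6, 250 bases before to 50 after the start) were matched for 67 of the 82 nuclear subunits. The motif GCGCATG, which forms most of the NRF1 site, was searched on both strands and lay in 13 of the 67 (19.4%), against 4.04% of all 27025 promoters. It overlaps its own reverse complement where the site is complete. CCGGAAG, an ETS-type motif, lay in 15 of 67 (22.4%, against 9.12%), and AAGATGG, a YY1-type motif, in 10 of 67 (14.9%, against 6.48%). The E-box CACGTG lay in 6 of 67 (8.96%, against 7.24%). Matches are a description of letters, not of binding. The 27025 promoters include those of genes not tested below, and the share over tested genes alone was not taken. The promoters of 2 nuclear subunits are shown, from 10 bases before the first match, with the matches in capitals. In both, an NRF1-type and an ETS-type match begin within 200 bases before the start. Not every nuclear subunit was considered for display, so others may also meet this rule. The letters searched and the 2 promoters shown were chosen after matches had been seen. Uqcr11 is also among the members with an unadjusted p of 0.05 or less below.
Cox6a1 (chr5:115348959-115349130, minus strand): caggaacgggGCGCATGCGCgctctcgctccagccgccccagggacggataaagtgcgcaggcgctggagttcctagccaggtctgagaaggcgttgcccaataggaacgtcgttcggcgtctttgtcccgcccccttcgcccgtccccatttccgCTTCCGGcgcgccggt
Uqcr11 (chr10:80406818-80406897, minus strand): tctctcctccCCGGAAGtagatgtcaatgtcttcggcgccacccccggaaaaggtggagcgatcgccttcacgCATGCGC

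Few respiratory chain genes differed between KO and Het cells at an unadjusted p of 0.05 or less. No gene of the table passed an adjusted p of 0.05 (0% of 10891 genes tested, edgeR, and likewise 0 with DESeq2 and with limma-voom), and 234 genes (2.15%) had an unadjusted p at or under 0.05. Of the 106 members, 97 passed the count minimum, and 5 of the 97 had an unadjusted p at or under 0.05, all higher in KO (higher in KO at this p: 1.38% of all genes, lower: 0.771%). They were mt-Co2 and the nuclear Ndufa3, Ndufs8, Ndufb4 and Uqcr11, and none passed after adjustment. DESeq2 gave 125 genes of all tested and 2 members at this p. The count of members depended on single libraries. It was 22 without KO 1, 2 without KO 2, 1 without KO 3, 0 without Het 1, 7 without Het 2 and 3 without Het 3. The count over all 10891 genes moved too, and was 763 without KO 1, 364 without KO 2 and 132 without KO 3. It was 229, 227 and 240 without Het 1, Het 2 and Het 3. In 3 libraries against 3, the CPM of all KO libraries was above all Het libraries in 6 of 97 members, where 3.95% of all genes tested were, and below in none, where 3.51% of all genes were.

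The size of the shift was small in nearly all members. The median log2 fold change was 0.139 over the 76 nuclear subunits tested, with 65 above and 11 below 0, and 0.189 over the 11 mitochondrial genes tested, with 10 above and 1 below 0. Over all 10891 genes it was 0.001, with 50.2% above 0. Among nuclear subunits the medians were 0.136 for complex I (36 genes), 0.094 for complex II (4 genes), 0.138 for complex III (8 genes), 0.136 for complex IV (13 genes) and 0.157 for complex V (15 genes). All 8 complex III and all 15 complex V subunits had a positive fold change. The 8 assembly factors had a median of −0.015. In such bulk RNA, fewer cells of a type and less RNA per cell cannot be told apart.

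**Figure D2:**
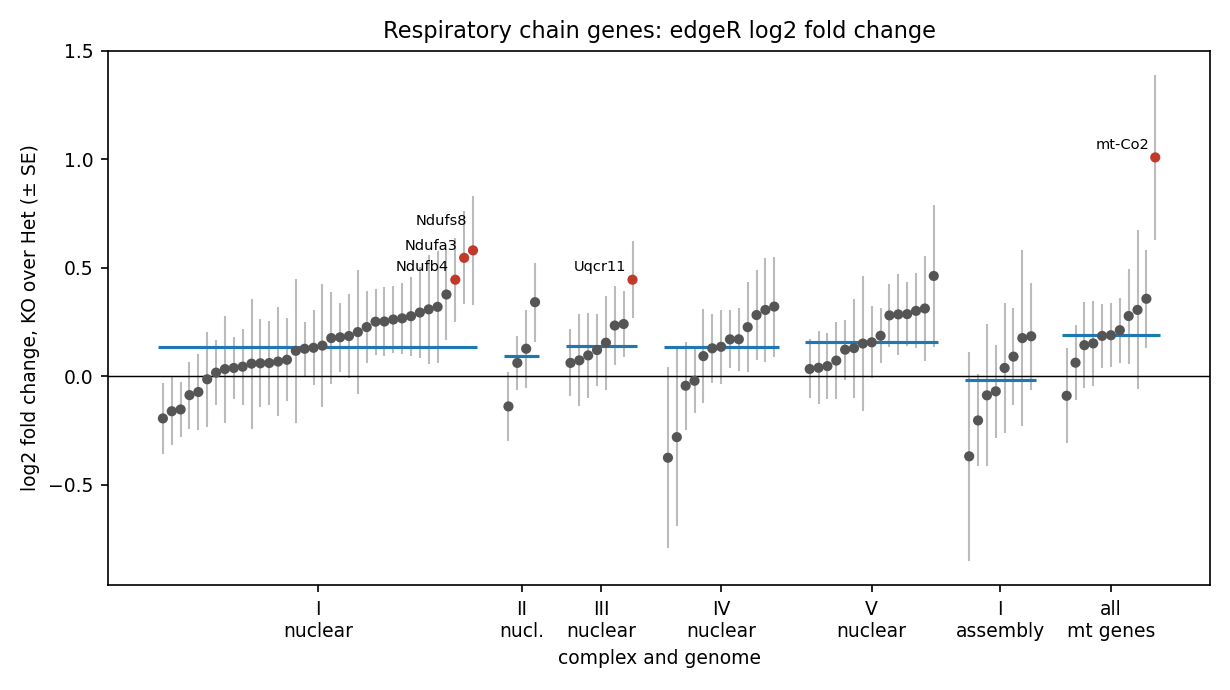
log2 fold change of KO over Het from edgeR for each tested member, sorted within its complex, with its SE as a grey line and the median of each group as a blue line. Red points are the 5 genes with an unadjusted p at or under 0.05. Most points lie above 0, and the assembly factors are spread around it.

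Among the mitochondrial genes of complex I, which form much of its membrane arm, mt-Nd1 had 2204, 2739 and 3570 CPM in KO libraries, against 1620, 2710 and 2694 CPM in Het libraries. mt-Nd5 had 2211, 2415 and 2554 CPM in KO libraries, against 1711, 2200 and 2402 CPM in Het libraries. In both genes Het 1 was the lowest library and the groups overlapped. Their log2 fold changes were 0.28 (SE 0.22, unadjusted p = 0.23, edgeR) and 0.19 (SE 0.15, unadjusted p = 0.23). mt-Nd2 (0.14, SE 0.20), mt-Nd4 (0.06, SE 0.17) and mt-Nd6 (0.15, SE 0.20) had smaller values with overlapping groups. mt-Nd6, the only one of the 13 read from the other strand of the mitochondrial genome, had 558, 690 and 689 CPM in KO libraries, against 410, 592 and 743 CPM in Het libraries. mt-Nd3 and mt-Nd4l stayed under the count minimum, with 5 to 9 and 5 to 14 counts in KO libraries, against 3 to 6 and 2 to 4 counts in Het libraries. Behind their RPKM stood 296, 340 and 639 fragments of mt-Nd3 in KO libraries, against 275, 353 and 303 in Het libraries. For mt-Nd4l they were 677, 744 and 1465 fragments in KO libraries, against 816, 829 and 801 in Het libraries. The counts of mt-Nd4l did not overlap between the groups on the CPM scale (2.06 to 3.84 CPM in KO, 0.847 to 1.65 CPM in Het), whereas the edgeR fit on fragments gave 0.17 on the log2 scale (SE 0.18, unadjusted p = 0.38).

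mt-Cytb, the mitochondrial subunit of complex III that holds its haem b groups, had 2152, 2512 and 2685 CPM in KO libraries, against 1785, 2279 and 2382 CPM in Het libraries. The groups overlapped, with Het 1 lowest and KO 3 highest (log2 fold change 0.19, SE 0.15, unadjusted p = 0.23, edgeR).

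The mitochondrial genes of complex IV encode its catalytic core. mt-Co1, which carries the oxygen-reducing centre, had 2620, 3115 and 3575 CPM in KO libraries, against 2348, 2791 and 2897 CPM in Het libraries, and its groups overlapped (log2 fold change 0.21, SE 0.15, edgeR unadjusted p = 0.18). mt-Co2, which accepts electrons from cytochrome c, had 26, 22 and 38 counts in KO libraries, against 14, 20 and 8 counts in Het libraries. In CPM these were 10.7, 10.9 and 10.4 in KO and 4.28, 8.25 and 3.39 in Het, so that the groups did not overlap (log2 fold change 1.01, SE 0.38, edgeR unadjusted p = 0.022, adjusted p = 1.00). These counts were 0.274 to 0.863% of its fragments. Its fragments were 3012, 2911 and 6202 in KO libraries, against 3082, 3370 and 2921 in Het libraries, and the same edgeR test on fragments gave 0.29 (SE 0.19, unadjusted p = 0.15). mt-Co3 had 22, 18 and 43 counts in KO libraries, against 19, 30 and 15 in Het libraries, with overlapping CPM (log2 fold change 0.31, SE 0.37).

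Of the mitochondrial genes of complex V, both parts of its membrane sector, mt-Atp8 had 244, 364 and 429 CPM in KO libraries, against 198, 336 and 277 CPM in Het libraries. KO 1 lay within the Het range (log2 fold change 0.36, SE 0.23, edgeR unadjusted p = 0.14). mt-Atp6 was the 1 mitochondrial gene with a negative value, −0.09 (SE 0.22), with 33.7, 40.4 and 54.9 CPM in KO libraries, against 35.8, 50.3 and 53.4 CPM in Het libraries. By RPKM, which counts all its fragments per length, mt-Atp6 was the highest member, at 1796 ± 908 in KO and 1860 ± 374 in Het (SD, n = 3 each). The lowest mitochondrial gene by RPKM was mt-Nd3, at 111 ± 54.8 in KO and 82.3 ± 14.9 in Het, and the highest nuclear subunit, Atp5a1, reached 73.4 ± 29.9 in KO and 70.8 ± 5.16 in Het. In the order by mean RPKM, neighbours among the 13 differed by less than the SD of the higher gene in KO cells, except mt-Nd4l and mt-Nd3. In Het cells, where the SDs were smaller, this held only among mt-Co3, mt-Atp8, mt-Nd2, mt-Nd4 and mt-Nd5, in falling order, and between mt-Nd6 and mt-Nd4l. These SDs are between libraries and do not measure the order within a library, and KO 3 had the highest RPKM of each of the 13. mt-Atp6 was above mt-Co1 in every library. Its RPKM was 1247, 1296 and 2845 in KO and 1655, 2292 and 1633 in Het. For mt-Co1 it was 691, 655 and 1480 in KO and 816, 786 and 742 in Het.

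**Figure D3:**
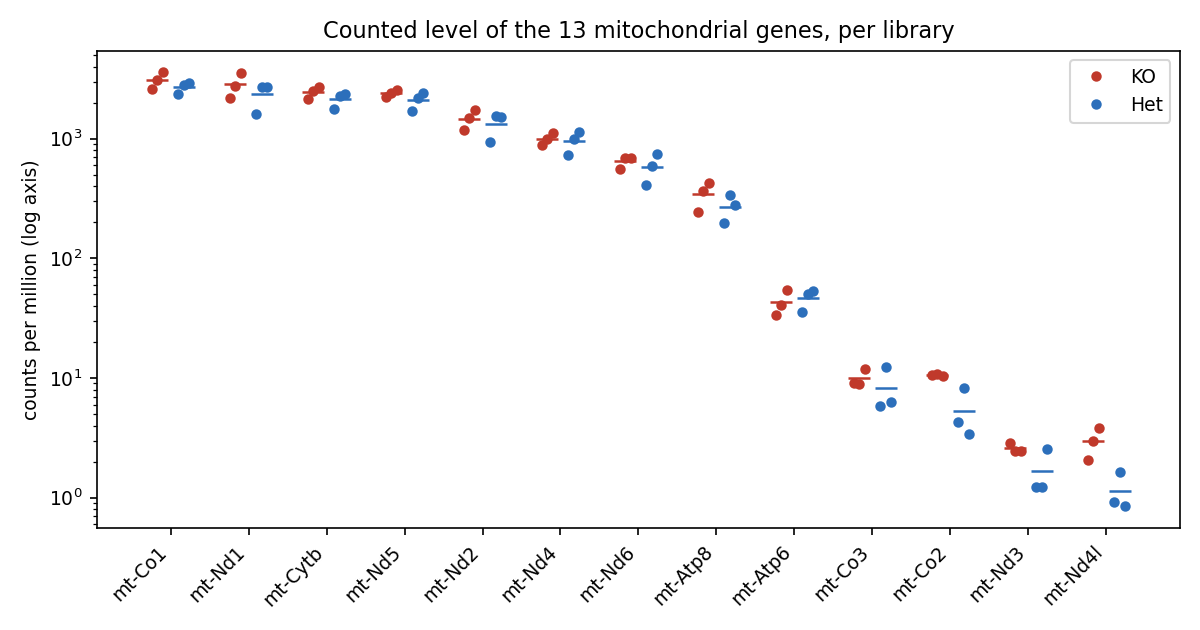
Counted level of each mitochondrial gene in each library, in CPM on a log axis, KO in red and Het in blue, with a bar at each group mean. The 5 genes to the right are those with a near-complete chromosome 1 copy, of whose fragments 0.250 to 2.36% were counted (mt-Co2: 10.7, 10.9 and 10.4 in KO, 4.28, 8.25 and 3.39 in Het).

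Among the nuclear subunits of complex I, 30 of 36 had a positive fold change and 3 had an unadjusted p at or under 0.05. Ndufs8, an iron-sulphur subunit of the peripheral arm (chr19:3908863-3912774, GRCm38), had 26.7, 27.1 and 40.1 CPM in KO libraries, against 15.9, 21.4 and 26.7 CPM in Het libraries. Its groups did not overlap, but KO 1 and Het 3 had nearly the same value (log2 fold change 0.58, SE 0.25, unadjusted p = 0.040, adjusted p = 1.00, edgeR). Ndufa3, an accessory subunit (chr7:3617373-3620327), had 32.1, 39.5 and 42.3 CPM in KO libraries, against 26.0, 32.2 and 19.9 CPM in Het libraries. KO 1 lay just under Het 2 (log2 fold change 0.55, SE 0.21, edgeR unadjusted p = 0.026). Ndufb4, an accessory subunit of the membrane arm (chr16:37647170-37654453), had 38.2, 54.3 and 60.9 CPM in KO libraries, against 34.8, 40.8 and 37.7 CPM in Het libraries (log2 fold change 0.45, SE 0.19, edgeR unadjusted p = 0.041). Without Het 1 none of the 3 kept an unadjusted p at or under 0.05. Of the 6 subunits with a negative value Ndufb7 had the lowest, −0.19 (SE 0.16), and Ndufv3 the smallest unadjusted p, 0.25, at −0.15 (SE 0.13). Ndufs1 and Ndufs5, named after their values were seen, were also higher in all KO libraries than in all Het libraries, with log2 fold changes of 0.13 each (SE 0.12 and 0.17). Of the Ndufs5 fragments 64.6 to 82.8% were counted, and edgeR on its fragments gave 0.07 (SE 0.15, unadjusted p = 0.66).

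Complex II, the succinate dehydrogenase shared with the TCA cycle, showed no common direction. Sdha, its flavoprotein, had 248.3, 273.2 and 260.4 CPM in KO libraries, against 263.1, 241.2 and 244.4 CPM in Het libraries (log2 fold change 0.06, SE 0.12). Sdhb, its iron-sulphur subunit, had a value of 0.13 (SE 0.18). The membrane anchors went apart, with 0.34 for Sdhd (SE 0.18, unadjusted p = 0.087, edgeR) and −0.14 for Sdhc (SE 0.16). Sdhd had 44.8, 69.1 and 66.4 CPM in KO libraries, against 50.1, 43.7 and 48.3 CPM in Het libraries, and KO 1 lay within the Het range.

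In complex III, Uqcr11, a small accessory subunit (chr10:80402997-80406830) whose promoter is shown above, had 41.5, 49.8 and 46.9 CPM in KO libraries, against 28.4, 39.6 and 33.9 CPM in Het libraries. All KO libraries were above all Het libraries (log2 fold change 0.45, SE 0.18, unadjusted p = 0.029, adjusted p = 1.00, edgeR). On fragments, 95.0 to 98.8% of which were counted, edgeR gave 0.43 (SE 0.17, unadjusted p = 0.033). Uqcrc1, a core subunit and the most counted of complex III, had 188.3, 248.6 and 243.9 CPM in KO libraries, against 187.9, 237.0 and 227.9 CPM in Het libraries (log2 fold change 0.06, SE 0.15). No subunit of complex III had a negative value.

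Complex IV was the only complex with nuclear subunits under the count minimum. Of its 19 nuclear subunits, 13 passed the count minimum, 9 with a positive and 4 with a negative value, and none had an unadjusted p at or under 0.05. Cox6c, the most counted, had 142.6, 188.9 and 189.3 CPM in KO libraries, against 147.3, 163.3 and 152.5 CPM in Het libraries (log2 fold change 0.17, SE 0.15). The smallest p of the positive values was that of Cox7a2 (0.32, SE 0.23, unadjusted p = 0.19, edgeR), and of the negative values that of Cox6b2 (−0.38, SE 0.42, unadjusted p = 0.39), which had 4.44 to 13.7 CPM in KO libraries and 8.56 to 20.2 CPM in Het libraries.

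Several complex IV subunits have isoform genes with tissue-restricted use in mammals, and the sorted cells used the widely expressed form in each set. By RPKM, Cox4i1 stood at 26.6 ± 14.0 in KO and 24.1 ± 3.18 in Het (SD, n = 3 each), against 1.22 ± 0.20 in KO and 1.53 ± 0.48 in Het for Cox4i2, the form linked to low oxygen and lung. Cox6a1 stood at 18.0 ± 7.83 in KO and 14.7 ± 4.10 in Het, and the heart and skeletal muscle form Cox6a2 had 0 to 3 counts in any library. Cox7a2 stood at 12.2 ± 7.22 in KO and 9.46 ± 1.26 in Het, and Cox7a2l, which takes part in joining complexes III and IV, had 64.1, 55.7 and 78.2 CPM in KO libraries, against 42.8, 66.0 and 56.8 CPM in Het libraries. Cox7a1, the muscle form, had 7, 0 and 0 counts in KO libraries, against 2, 0 and 2 counts in Het libraries. KO 1, with 7 counts of Cox7a1, was also the library with the highest summed level of 9 cardiac and skeletal muscle markers, and Het 2, with the lowest, was among the 3 libraries with 0 counts of Cox7a1. That sum was 1773, 218 and 105 CPM in KO libraries, against 458, 43.7 and 363 CPM in Het libraries, and its part in the Cox7a1 counts was not tested. Cox6a2 did not follow that sum, with 0, 3 and 0 counts in KO libraries, against 0, 0 and 1 in Het libraries. Cox6b1 stood at 22.3 ± 9.84 in KO and 19.8 ± 1.17 in Het, against 2.497 ± 1.799 in KO and 3.01 ± 1.11 in Het for Cox6b2, known as a testis form. Cox7b2 and Cox8c had 0 counts in all 6 libraries, and Cox8b had 2 counts in KO 3 alone, whereas Cox7b stood at 26.5 ± 11.5 in KO and 23.1 ± 1.01 in Het and Cox8a at 31.6 ± 13.2 in KO and 31.8 ± 6.98 in Het. Ndufa4, now counted with complex IV, stood at 11.4 ± 5.66 in KO and 9.51 ± 1.12 in Het, and the hypoxia-linked Ndufa4l2 at 0.26 ± 0.30 in KO and 0.03 ± 0.06 in Het. The SD in KO was wider than in Het for most of these genes, and KO 3 was the library with the largest sum of gene counts.

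**Figure D4:**
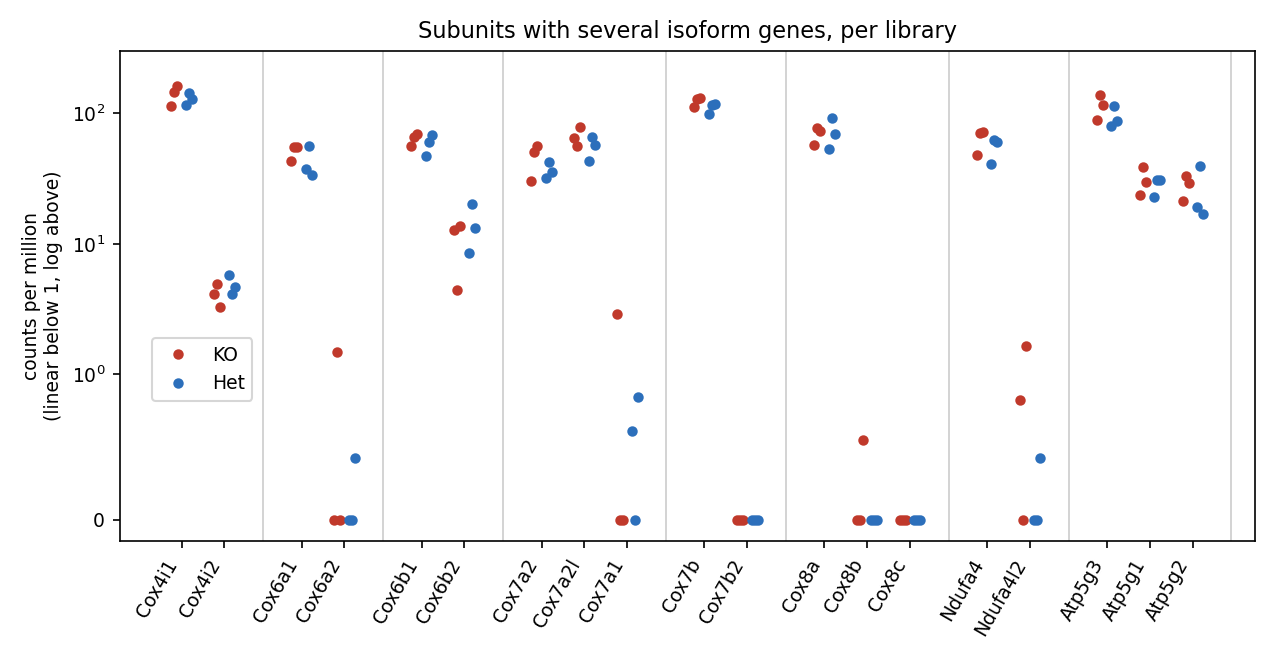
CPM of the subunits with several isoform genes in each library, KO in red left of Het in blue, on an axis that is linear below 1 and logarithmic above. In each complex IV set and in the Ndufa4 pair a widely expressed form was counted in all 6 libraries, while Cox7b2 and Cox8c lay at 0 in all of them and Cox8b was above 0 only in KO 3.

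None of the isoforms that passed the count minimum differed between the genotypes at an unadjusted p of 0.05 or less. Cox6a2, Cox7a1, Cox7b2, Cox8b, Cox8c and Ndufa4l2 did not pass it and were not tested. The log2 fold change was 0.13 for Cox4i1 (SE 0.16) and −0.28 for Cox4i2 (SE 0.41), 0.28 for Cox6a1 (SE 0.21) and 0.14 for Cox6b1 (SE 0.17). It was 0.28 for Cox7a2l (SE 0.19), 0.17 for Cox7b (SE 0.13), −0.04 for Cox8a (SE 0.20) and 0.23 for Ndufa4 (SE 0.21).

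Complex V, the ATP synthase, had a positive value in all 15 nuclear subunits, without any at an unadjusted p of 0.05 or less. Atp5b, the catalytic beta subunit and the most counted nuclear member, had 876, 1215 and 1062 CPM in KO libraries, against 880, 1116 and 1056 CPM in Het libraries (log2 fold change 0.05, SE 0.15). The smallest p was that of Atp5c1, the gamma subunit of the rotor shaft, with 196.5, 253.0 and 240.9 CPM in KO libraries, against 166.5, 200.4 and 199.5 CPM in Het libraries. KO 1 lay within the Het range (log2 fold change 0.29, SE 0.15, unadjusted p = 0.075, edgeR). Atp5j, named after its values were seen, was higher in all KO libraries than in all Het libraries (0.19, SE 0.13). The 3 genes Atp5g1, Atp5g2 and Atp5g3 encode the same mature c subunit of the membrane ring. Their log2 fold changes were 0.13 (SE 0.23), 0.15 (SE 0.31) and 0.29 (SE 0.19), and by RPKM Atp5g3 was the highest of them, at 12.6 ± 4.95 in KO and 10.4 ± 1.70 in Het, over 8.27 ± 3.10 in KO and 7.62 ± 2.36 in Het for Atp5g2. Only 48.7% of Atp5g2 fragments and 79.3% of Atp5g1 fragments were counted. Among the 67 nuclear members with whole fragments, 35 had all of them counted and 13 less than 90%, among them Cox7c (46.9%), Uqcrb (57.4%), Ndufab1 (57.6%) and Atp5h (59.5%), so that counts of these genes are uncertain.

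The 8 complex I assembly factors, which build the complex and are not part of it, were split evenly around 0. Ndufaf2 was the most counted and had 30.4, 42.4 and 40.6 CPM in KO libraries, against 33.9, 42.5 and 55.1 CPM in Het libraries (log2 fold change −0.20, SE 0.21, unadjusted p = 0.36, edgeR). The smallest p of the positive values was that of Ndufaf7, 0.47, at 0.18 (SE 0.25).

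Set against each other, the 2 genomes differed little between genotypes. The 13 mitochondrial genes took 1.22, 1.40 and 1.70% of the counts in KO libraries, against 0.984, 1.35 and 1.39% in Het libraries, a difference of 0.20 percentage points (KO 1.44 ± 0.24%, Het 1.24 ± 0.22%, SD, n = 3 each). The 82 nuclear subunits took 0.675, 0.843 and 0.867% in KO libraries, against 0.649, 0.801 and 0.744% in Het libraries. The log2 ratio of mitochondrial over nuclear counts was 0.86, 0.73 and 0.97 in KO libraries, against 0.60, 0.75 and 0.90 in Het libraries. The groups overlapped in all 3 measures, and the difference of the ratio, 0.10, was smaller than its SD in either group (0.12 in KO, 0.15 in Het). On fragments, with the near-uncounted genes at their full value, the ratio was 1.96, 1.84 and 2.08 in KO libraries, against 1.79, 1.96 and 1.98 in Het libraries, a difference of 0.05. The mitochondrial share of the fragments mapped as pairs was 0.477, 0.453 and 1.03% in KO libraries, against 0.526, 0.622 and 0.553% in Het libraries. KO 1 and KO 2 were thus below all Het libraries in this share, and KO 3 above them.

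The levels of both genomes also varied between libraries of the same genotype. The median deviation of the nuclear subunits from their gene means was −0.17, 0.22 and 0.19 (log2 CPM) in KO 1, KO 2 and KO 3, against −0.29, 0.08 and −0.01 in Het 1, Het 2 and Het 3. For the mitochondrial genes it was −0.13, 0.12 and 0.32 in KO libraries, against −0.53, 0.11 and 0.10 in Het libraries. KO 1 and Het 1 were thus low in both genomes, and the nuclear subunits of complexes I, III, IV and V had the same signs in KO 1, KO 2, KO 3, Het 1 and Het 2. The 77 cytosolic ribosomal protein genes (Rpl and Rps names), which are not part of the chain, had −0.33, 0.26 and 0.22 in KO libraries, against −0.29, 0.19 and −0.06 in Het libraries. Short genes in general ran the same way. The 2137 genes with the shortest exon length (204 to 2766 bases) had −0.15, 0.14 and 0.13 in KO libraries, against −0.12, 0.08 and −0.01 in Het libraries, and the 2135 genes with the longest 0.14, −0.14 and −0.07 in KO libraries, against 0.11, −0.03 and 0.02 in Het libraries.

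Nuclear subunits are short, with a median exon length of 1696.5 bases against 4867 bases over all genes tested. The median log2 fold change of those 2137 short genes was 0.068, with 63.3% above 0, and that of the 2135 long genes −0.052. With an exon length offset in the fit, chosen after seeing the data, the median of the nuclear subunits was 0.079 and that of the mitochondrial genes 0.133. Of 96 members in this fit, 5 again had an unadjusted p at or under 0.05, as had 277 of its 10673 genes. With the offset the medians stayed above 0. The same held for the 77 cytosolic ribosomal protein genes, at 0.062 with the offset. Without it their median was 0.111, with 69 above and 8 below 0. Without Het 1 the median of the nuclear subunits was 0.053 and that of the mitochondrial genes 0.069, and without KO 1 they were 0.250 and 0.275.

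**Figure D5:**
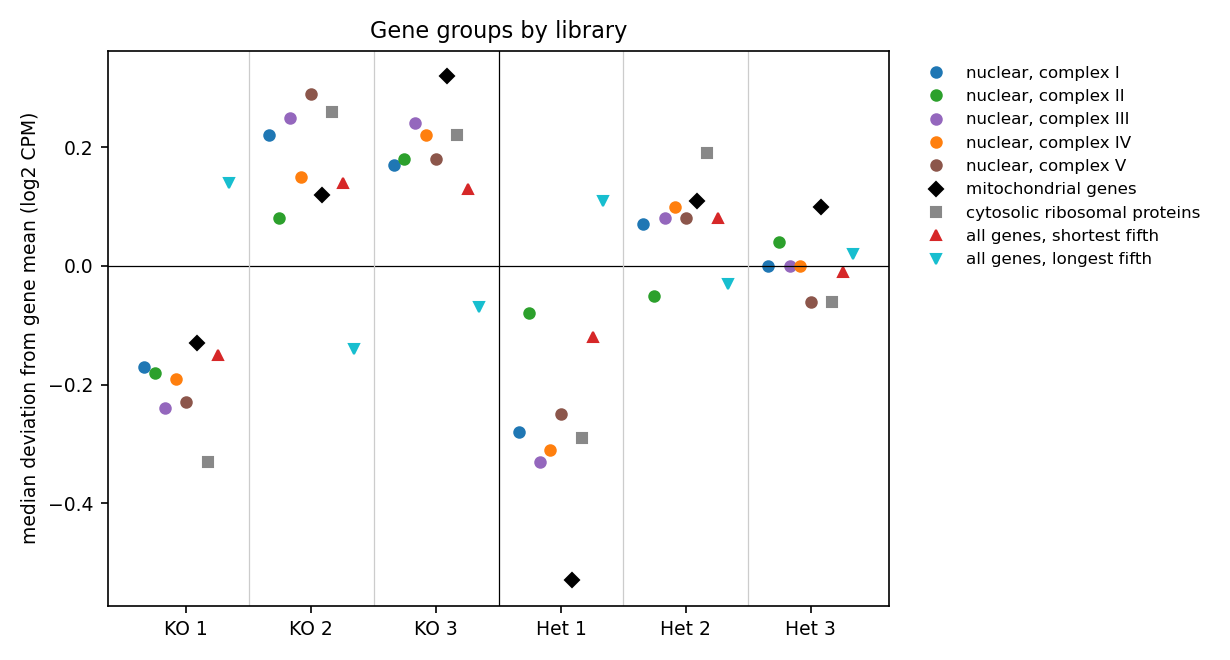
Median deviation from the gene mean (log2 CPM) of each gene group in each library, KO libraries left of Het libraries. The nuclear complexes, the mitochondrial genes, the ribosomal protein genes and the 2137 shortest genes (red triangles) lie below 0 in KO 1 and Het 1 and above 0 in KO 2 and KO 3, and the 2135 longest genes (cyan) lie on the opposite side.

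Genes that serve the chain but lie outside the name rule had medians near 0 in 5 of the 6 lists. Among 10 tested genes of cytochrome c and its partners the median log2 fold change was 0.14, among 35 further assembly factors 0.01, among 19 TCA cycle genes 0.04 and among 11 ubiquinone synthesis genes −0.07, with no gene at an unadjusted p of 0.05 or less in any of the 4 lists. Of 16 regulators of mitochondrial biogenesis (median 0.03), Pprc1, a PGC-1 related coactivator, had 123.7, 123.3 and 111.9 CPM in KO libraries, against 154.6, 133.6 and 152.1 CPM in Het libraries. Its groups did not overlap (log2 fold change −0.30, SE 0.13, unadjusted p = 0.041, adjusted p = 1.00, edgeR). Of 17 genes for mitochondrial DNA replication and RNA handling (median −0.02), Twnk, the mitochondrial DNA helicase Twinkle, had 51.0, 50.3 and 38.7 CPM in KO libraries, against 61.1, 62.3 and 61.9 CPM in Het libraries. Its groups did not overlap either (log2 fold change −0.41, SE 0.16, unadjusted p = 0.023, adjusted p = 1.00, edgeR). These were 2 of 108 genes tested over the 6 lists, against the 2.15% of all genes at this p.

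Markers of other cell types varied between libraries of the same genotype. The 5 endothelial markers summed to 118, 65.6 and 211 CPM in KO libraries, against 118, 53.6 and 164 CPM in Het libraries, and the 4 hepatic markers to 90.02, 7.89 and 243 CPM in KO libraries, against 34.8, 26.0 and 66.5 CPM in Het libraries. The 4 epithelial markers summed to 233 to 275 CPM in KO and 237 to 374 CPM in Het. The 5 neural markers summed to 113, 39.0 and 163 CPM in KO libraries, against 68.1, 20.6 and 36.9 CPM in Het libraries, with Nefl (log2 fold change 1.77, SE 0.41, unadjusted p = 0.0011, adjusted p = 1.00, edgeR) and Nefm (1.29, SE 0.50, unadjusted p = 0.025) higher in KO. The groups of Nefm overlapped. Nefm and Nefl made up most of the neural sum. Tubb3, Stmn2 and Elavl3 were under the count minimum, with Tubb3 at 0 to 1.64 CPM in KO and 0.917 to 1.27 CPM in Het. The 9 erythroid markers summed to 1.23 to 23.6 CPM in KO and 0.424 to 4.95 CPM in Het, with Hbb-bs at 0 counts throughout, and the 4 macrophage markers to 0 to 5.76 CPM in KO and 1.22 to 2.12 CPM in Het. The part of these cells in the levels of the chain genes was not tested.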

How the data were processed

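RNA of Tdtomato-positive cells sorted from the thoracic wall of E10.5 embryos was amplified with a Takara SMARTer kit and sequenced on a NextSeq500 (3 KO and 3 Het libraries). The authors mapped the reads with CLC software to mm10 with an ENSEMBL annotation, while the submitters' processing notes name mm9. Of 47096 genes with a single GENCODE M21 entry, 91.1% had the same start and end on GRCm38. The authors deposited whole counts per gene and RPKM values in 1 table. RPKM times exon length times the fragments mapped as pairs was whole (tolerance 0.01) for 69.0% of the tested genes with a known length, and these fragments were never below the deposited counts. The rule by which the authors left fragments out of the counts is not given in the sources used here. Count and RPKM columns of all 6 libraries were mapped by name. The deposited fold changes and p-values of the authors' own test, their normalized and transformed values, and a list of genes past their thresholds were not used.

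A gene was tested where 3 or more libraries held 10 or more of its counts, using edgeR 4.0.16 (TMM factors, quasi-likelihood test, KO over Het, genotype only, all 6 libraries), with Benjamini-Hochberg adjustment over all 10891 genes. The script was tested on simulated data. DESeq2 1.42.0, limma 3.58.1 (voom, and log2 of the RPKM plus 1) and other scalings, filters, a replicate block and each library left out were the alternatives. The fits on the fragments behind the RPKM and with an exon length offset were chosen after seeing the data. Shares, ratios and medians over members carry no test. The labels do not say that the 3 libraries of a group came from separate litters, so p-values measure only the spread between these libraries. Replicate numbers did not pair the libraries by the rule that every same-numbered pair correlates above 0.1. Copies were found with blastn 2.17.0+ against GENCODE M21 transcripts. Longer forms of the NRF1 and YY1 motifs, and a display rule asking for more NRF1 matches, were tried first and replaced after their matches had been seen. Genes named in the text were all mitochondrial genes, in each complex the most counted nuclear member and the smallest p in each direction, all members at an unadjusted p of 0.05 or less, isoform sets, and the smallest p of each further list. A gene that this rule names is not reported here. The members and lists were chosen with earlier results of these data known.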

Additional observations from a re-analysis of the deposited data

How the results depend on the processing

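The direction of both medians, of the mitochondrial share and of the mitochondrial over nuclear ratio was kept under every alternative that was run. For the share and the ratio, single libraries were left out on counts only. On fragments, the share of KO 1 and of KO 2 was below that of every Het library. The median of the nuclear subunits ran over 0.053 to 0.250 and that of the mitochondrial genes over 0.069 to 0.275 with 1 library left out. The count of members at an unadjusted p of 0.05 or less was 5 of 97 with the counts as deposited. It was 2 with DESeq2, 0 with the RPKM and 0 to 22 with 1 library left out. Over all 10891 genes, 234 had such a p in the main comparison. This was 125 with DESeq2, 26 with the RPKM and 132 to 763 with 1 library left out. The fit on fragments held only 75 members and 8044 genes, and 2 of these members and 154 of these genes had such a p. Ndufs8 and Ndufb4 were not in that fit, since their fragments were not whole numbers. The count of genes past an adjusted p of 0.05, 0 in the main comparison, was 38 without a count filter and 0 to 1 with 1 library left out. With the replicate number as a block, 2 genes passed, and 11 members and 493 of all 10891 genes had an unadjusted p of 0.05 or less. Same-numbered libraries correlated at 0.431, 0.195 and 0.013 in their deviations, and KO 3 correlated best with Het 2 (0.092), so the numbers were not taken as a pairing. Of 47 named genes, 35 kept their direction throughout. mt-Nd4 was −0.0035 with the exon length offset, and Atp5b −0.0091 on the RPKM scale of log2(RPKM + 1). With 1 library left out, mt-Nd2 ran over −0.054 to 0.275, mt-Nd4 −0.104 to 0.211, mt-Nd6 −0.049 to 0.366, mt-Atp6 −0.322 to 0.062, Sdhb −0.080 to 0.233, Uqcrc1 −0.036 to 0.180, Cox6b1 −0.0073 to 0.263, Cox8a −0.226 to 0.182, Atp5b −0.077 to 0.162, Atp5g1 −0.061 to 0.282, Atp5g2 −0.057 to 0.617 and Ndufaf7 −0.0030 to 0.298. The cause was not tested in any of these. A separate fit on reads that match 1 gene only was not run, since no column is labelled so. Whether the deposited counts are such reads is not stated in the sources used here. mt-Nd3 and mt-Nd4l, with 14 counts or fewer in any library, were under the count minimum and have no fold change on counts.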

Other observations

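The most counted gene of the table was Lars2, the mitochondrial leucyl-tRNA synthetase, named here after its values were seen. It had 24711.5, 44411 and 6466 CPM in KO libraries, against 11003, 13472 and 25790 CPM in Het libraries. Whether all counts assigned to Lars2 came from its mRNA was not tested. All 106 respiratory chain members together summed to 19024, 23318 and 25056 CPM in KO libraries, against 16440, 21828 and 21888 CPM in Het libraries, which was below Lars2 in KO 1, KO 2 and Het 3. The groups of Lars2 overlapped (log2 fold change 0.59, SE 0.52, unadjusted p = 0.28, adjusted p = 1.00, edgeR).

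The counts of the 13 mitochondrial genes summed to 29473, 29194 and 59851 in KO libraries, against 32030, 32798 and 33319 in Het libraries. The fragments behind their RPKM summed to 52895, 53569 and 108744 in KO libraries, against 60818, 64339 and 59783 in Het libraries.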
